A study of Mus musculus with 7 samples.

Results

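Cycling IEL were taken as the intraepithelial lymphocytes (IEL) with at least 1 UMI of Mki67 and at least 1 UMI of Top2a in the deposited counts. A UMI, or unique molecular identifier, stands for 1 captured transcript molecule. The rule was met by 232 of 4348 young IEL and by 114 of 5811 old IEL, or 346 of 10159 IEL in a series of 21365 cells. Because Mki67 and Top2a chose the cells, their levels are given as a description and support nothing further.

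The cells were sorted from the small intestinal epithelium and the spleen (SP) of C57BL/6 mice of 6 weeks (young) or 80 weeks (old). The methods of the study describe the mice as male but also name both sexes. The labels name no allele or agent beyond age. Cells of 3 mice per age were pooled according to the labels, CD45+ cells were enriched, and each pool carried its own hashtag antibody, so that each age of each tissue is 1 pool. For IEL, sorted CD3+ cells received an added CD3+CD4+ sort at a ratio of 1:1, and the Cd4 share therefore depends on the sort. With 1 pool per group no test was possible, and all intervals given are 95% intervals that cover counting error only, exact binomial (Clopper-Pearson) for shares of cells and exact Poisson for UMI levels.

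A cell that divides copies its DNA in S phase, condenses and separates its chromosomes in G2 and mitosis, and expresses a set of genes for each step. Mki67 encodes the chromosome surfactant Ki-67, Top2a the topoisomerase that untangles replicated DNA, Stmn1 the microtubule regulator stathmin, and Birc5 survivin, a subunit of the complex that guides chromosome separation. IEL lie between the epithelial cells of the gut and comprise gamma-delta T cells, natural alpha-beta T cells with the CD8 alpha-alpha dimer that carry NK-type receptors, and induced CD4 or CD8 T cells that entered from the circulation. Most of them are antigen-experienced cells that divide little at rest.

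The cells that met the rule were deeper than the rest of their pool. Their median was 13733.5 UMIs in young IEL against 6414.5 in the 4116 other cells, and 8297 UMIs in old IEL against 5295 in the 5697 other cells. The pools held 32248487 UMIs in young and 33314700 UMIs in old IEL. Mitochondrial transcripts were 0.908% of the UMIs of these cells and 0.892% of those of the other cells in young IEL, and 0.802% and 0.824% in old IEL. Transcripts of the CD3 chains (Cd3d, Cd3e, Cd3g) were detected in each of the 232 young cells and in 112 of 114 old ones. No barcode was listed in more than 1 group (0 of 21365).

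The label "cycling" was checked with Stmn1 and Birc5, which the rule did not use. A UMI of Stmn1 or Birc5 was found in 159 of 232 cells (68.5%, 62.1 to 74.5) in young IEL, but in 46 of 114 (40.4%, 31.3 to 49.9) in old IEL. Both genes were found in 120 young cells (51.7%) and in 39 old cells (34.2%). Among the cells outside the rule, 6.88% of young and 2.53% of old IEL had a UMI of either gene. Part of the selected cells thus lacked both further markers. On raw counts this part was larger in old IEL, whose selected cells were shallower. After each cell had been thinned at random to 2000 UMIs, 36 of 68 young and 15 of 26 old cells that met the rule had both genes. The larger part in old IEL may therefore depend on depth, which was not tested. All cells that met the rule are therefore named Mki67+Top2a+ cells from here on, those with a UMI of Stmn1 or Birc5 marked cells, and the others unmarked cells.

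Marked and unmarked cells differed in the whole cell cycle programme. Fixed lists of 49 S phase genes and of 54 G2/M genes other than Mki67, Top2a, Stmn1 and Birc5 were summed in each cell. In young IEL the G2/M list had a median of 101 UMIs per 10000 in marked cells, 15.9 in the 73 unmarked cells and 18.8 in other cells. In old IEL these medians were 150, 19.0 (68 unmarked cells) and 19.6. The S phase list had medians of 92.8, 13.2 and 13.0 UMIs per 10000 in young IEL and of 103, 14.5 and 13.5 in old IEL. Unmarked cells therefore lay at the level of the cells outside the rule in both lists and at both ages. After each cell had been thinned at random to 2000 UMIs, so that depth was equal, a median of 25 of the 103 list genes was detected in young and 27 in old marked cells, against 4 and 6 in unmarked cells and 5 in the other cells of either age. The median depth was 16045 UMIs in young and 16046.5 UMIs in old marked cells, and 8576 and 6586.5 UMIs in unmarked cells.

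**Figure D1:**
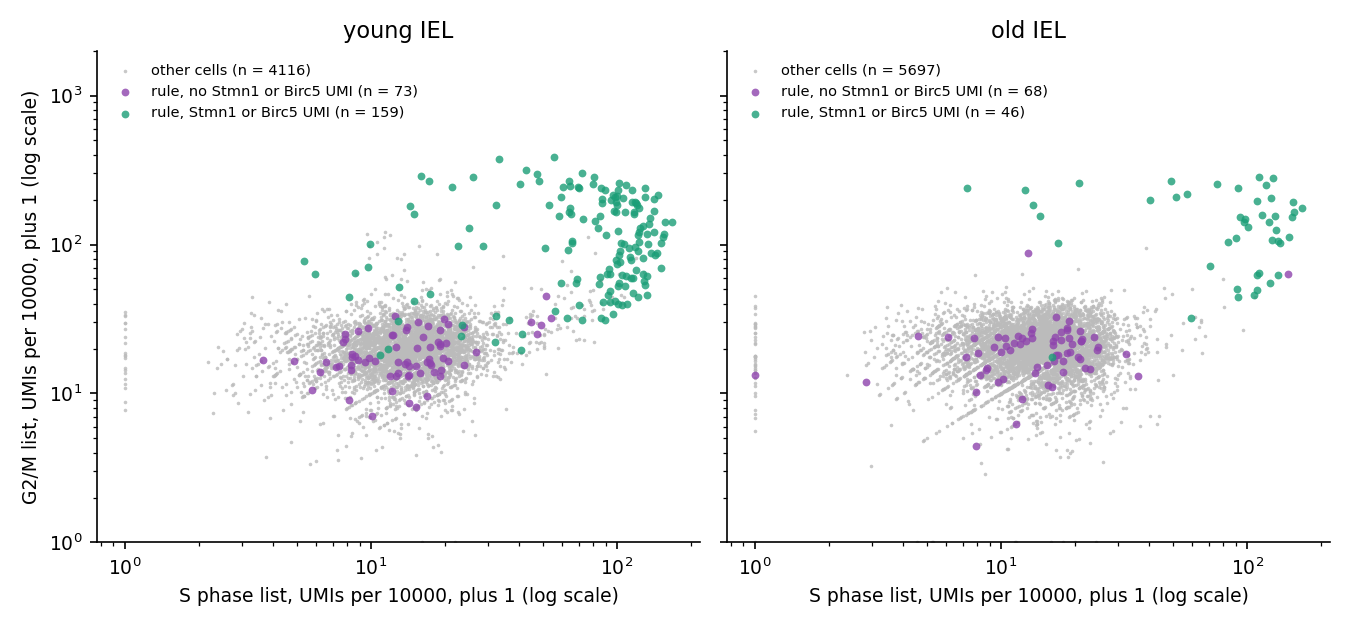
Each point is 1 cell of young IEL (left) or old IEL (right), with the summed S phase list on the x axis and the summed G2/M list on the y axis, both as UMIs per 10000 plus 1 on log scales. The marked cells (green, 159 young and 46 old) mostly lie above and to the right of the other cells (grey), and the unmarked cells (purple, 73 young and 68 old) mostly lie among them.

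The cells at the edge of the rule show the same division. Exactly 1 UMI of each gene was counted in 54 young and 51 old cells, of which 9 and 1 were marked. At least 2 UMIs of each were counted in 123 young cells, of which 119 were marked, and in 42 old cells, of which 40 were marked. Just outside the rule, 289 young cells held Mki67 without Top2a and 739 held Top2a without Mki67, and 19.0% and 7.85% of them had a UMI of Stmn1 or Birc5. In old IEL there were 224 and 577 such cells, with 6.70% and 3.64%. No hard boundary is therefore given by the 2 genes alone, and the rule both takes in cells without the programme and leaves some out.

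The share of cells that met the rule was higher in young than in old IEL under every setting tried. On raw counts it was 5.34% in young IEL (4.69 to 6.05) and 1.96% in old IEL (1.62 to 2.35). The same rule took 26 of 5668 young SP cells, or 0.459%, and 24 of 5538 old SP cells, or 0.433%. After thinning to 2000 UMIs, which left out 130 old IEL, the rule was met by 68 young IEL, or 1.56% (1.22 to 1.98), and by 26 old IEL, or 0.458% (0.299 to 0.670), while in SP the shares were 0.195% (young) and 0.109% (old). Marked cells were 3.66% of young IEL (3.12 to 4.26) and 0.792% of old IEL (0.580 to 1.05). The intervals of young and old IEL did not overlap in any of these 3 counts, but each age is 1 pool, so age and pool cannot be told apart.

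**Figure D2:**
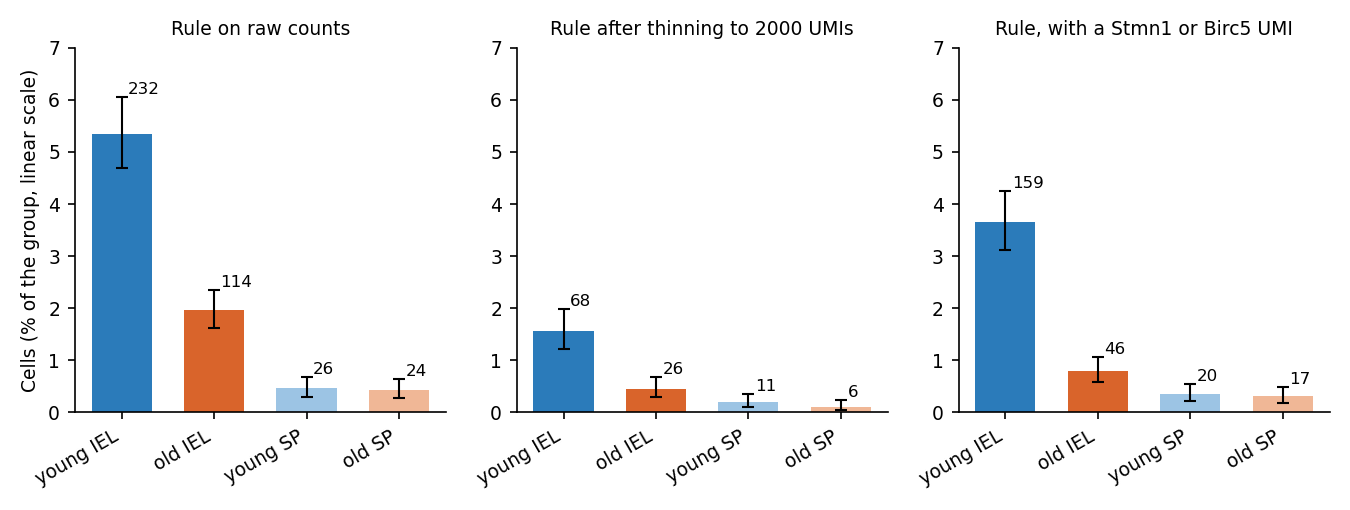
Bars give the percent of cells of each group that met the rule on raw counts (left), after thinning to 2000 UMIs (middle), or on raw counts with a UMI of Stmn1 or Birc5 (right), with exact binomial 95% intervals and the number of cells above each bar. Young IEL (5.34%, 1.56% and 3.66%) stand above old IEL (1.96%, 0.458% and 0.792%) in all 3 panels.

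Gene levels were taken as the summed UMIs of the Mki67+Top2a+ or of the other cells per 10000 UMIs, and log2 ratios after adding 0.1 to both levels. A gene was counted as higher or lower where the levels differed at least 2-fold on that scale and their Poisson intervals did not overlap. Among 6714 genes compared in young IEL, 328 were higher in the Mki67+Top2a+ cells (4.89%) and 84 lower (1.25%). Among 6908 genes compared in old IEL, 323 were higher (4.68%) and 106 lower (1.53%). Of the genes compared at both ages, 282 were higher at both, which is 88.1% of those higher in young and 91.0% of those higher in old IEL. For the lower genes the overlap was 37 genes, or 49.3% and 42.0%, and 0 genes moved in opposite directions.

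The genes with the highest ratios served DNA replication, histone supply and mitosis. Pclaf, a PCNA-binding factor of replication forks (GRCm38 chromosome 9, 65890237 to 65903266), was at 6.35 UMIs per 10000 in Mki67+Top2a+ and 0.0781 in other young IEL, a log2 ratio of 5.18. In old IEL Pclaf was at 5.91 against 0.0143, a log2 ratio of 5.72. The replication-dependent histone gene Hist1h2ae was at 9.50 against 0.149 in young IEL (log2 ratio 5.27) and at 7.98 against 0.118 in old IEL (5.21). Histone genes of this kind form a family of near-identical copies, so reads could be split among them. The log2 ratios were 4.62 and 5.15 for the linker histone gene Hist1h1b, 4.41 and 4.03 for Hist1h2ab, and 4.34 and 4.58 for Rrm2, the small subunit of ribonucleotide reductase, in young and old IEL.

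Stmn1 (chromosome 4, 134468320 to 134473843) was at 7.55 UMIs per 10000 in Mki67+Top2a+ and 0.255 in other young IEL, and at 7.04 and 0.0689 in old IEL, which gave log2 ratios of 4.43 and 5.40. Birc5 (chromosome 11, 117849251 to 117855743) was at 3.42 and 0.0854 in young and at 2.87 and 0.0115 in old IEL, with log2 ratios of 4.25 and 4.74. Ube2c, a ubiquitin-conjugating enzyme that works with the ubiquitin ligase that ends mitosis, had log2 ratios of 4.18 and 4.09. However, 33.1% of its UMIs in old Mki67+Top2a+ cells came from 1 cell. Ccna2, the cyclin of S phase and early mitosis, had ratios of 4.0 and 4.14, and Spc24, a kinetochore subunit, of 3.69 and 3.85. For Mki67 itself the levels were 4.14 and 0.134 in young and 4.28 and 0.0801 in old IEL, and for Top2a 5.49 and 0.326 and 5.50 and 0.213, as the rule set them.

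The promoters of the G2/M genes are shown because members of this list moved together, and the 3 printed are those of Birc5, Ube2c and Nusap1, a spindle protein with log2 ratios of 3.62 and 3.72, the G2/M genes of highest young ratio for which the reference table held 1 promoter. Each run is the 200 bases before the RefSeq transcription start on GRCm38.p6, plus strand, and capitals mark matches to CCAAT or TTTGAA on either strand, and the first run of capitals in Ube2c holds a match on each strand that overlap.
Birc5, chr11:117849037-117849236: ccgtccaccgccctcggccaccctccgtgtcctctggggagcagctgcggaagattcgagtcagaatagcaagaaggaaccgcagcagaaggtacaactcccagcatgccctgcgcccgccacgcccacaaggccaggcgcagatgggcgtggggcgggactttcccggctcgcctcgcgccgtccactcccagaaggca
Ube2c, chr2:164769729-164769928: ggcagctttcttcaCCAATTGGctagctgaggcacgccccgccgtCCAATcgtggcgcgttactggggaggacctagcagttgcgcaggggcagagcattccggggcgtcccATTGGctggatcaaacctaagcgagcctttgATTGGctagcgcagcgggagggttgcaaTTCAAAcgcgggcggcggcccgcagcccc
Nusap1, chr2:119618098-119618297: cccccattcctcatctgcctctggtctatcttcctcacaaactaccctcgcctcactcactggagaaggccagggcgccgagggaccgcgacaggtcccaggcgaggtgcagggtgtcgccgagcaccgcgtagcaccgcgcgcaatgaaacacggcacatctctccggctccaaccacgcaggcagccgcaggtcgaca
The Ube2c window held 5 matches to CCAAT and 1 to TTTGAA, the letters of the cell cycle homology region (CHR), and the windows of Birc5 and Nusap1 held 0 of either. Over the G2/M list, CCAAT was found in the windows of 36 of 48 genes (75%) and TTTGAA in 18 of 48 (37.5%), against 32.7% and 14.4% of all 27025 genes in the table. Over the S phase list the counts were 24 of 36 (66.7%) and 5 of 36 (13.9%). The E2F site, searched as GGCGGGAA on both strands, was found for 4 of 36 S phase genes and 1 of 48 G2/M genes, against 1.90% of all genes. A match describes the letters of a window and is not evidence of a bound site.

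Most genes of both cell cycle lists were higher in the Mki67+Top2a+ cells. Of the S phase list 40 of 47 genes compared were higher in young and 38 of 47 in old IEL, with median log2 ratios of 2.11 and 1.93, against medians of -0.03 and -0.04 over all genes compared. The replication helicase subunit Mcm6 (1.63 and 1.62) and the nucleotide hydrolase Dut (2.39 and 2.45) lay within this range. Of the G2/M list 48 of 51 genes were higher in young and 47 of 51 in old IEL, with medians of 2.26 and 2.32. Hmgb2, a chromatin protein that resting IEL also express, was at 24.4 UMIs per 10000 in Mki67+Top2a+ and 7.59 in other young IEL and at 25.2 and 7.71 in old IEL, a log2 ratio of 1.67 and 1.69. The tubulin genes Tubb5 (2.59 and 2.56) and Tuba1b (3.26 and 2.94) had higher ratios. These genes are co-expressed with the 2 genes of the rule, so their counts describe the cells and are no test.

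Among cyclins and their kinases, 7 of 12 genes compared were higher at each age, the same genes in young and old IEL: Ccna2, Ccnb1, Ccnb2, Ccne1, Cdk1, Cdk2 and Cdk4. The D cyclins, which act at the entry into the cycle, were not among them. Ccnd2 had log2 ratios of -0.47 in young and -0.57 in old IEL and Ccnd3 of -0.12 and -0.10. Of the inhibitors of these kinases, Cdkn2c (1.53 and 1.77) and Cdkn2a (1.32 and 1.63) were higher in the Mki67+Top2a+ cells at both ages, whereas Cdkn1b, which encodes p27, had log2 ratios of -0.69 and -0.43. Cdkn2a, the locus of p16 and p19, was at 0.215 UMIs per 10000 in young and 0.619 in old Mki67+Top2a+ cells, with UMIs in 49 and 38 cells, and at 0.0260 and 0.133 in the other cells.

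In the list of E2F, RB and DREAM genes, which switch cell cycle transcription on and off, 8 of 17 genes were higher in young and 7 of 16 in old IEL. Tfdp1, the partner of E2F factors, had log2 ratios of 1.82 and 1.97, while the repressor subunits Rb1 (0.16 and 0.14) and Rbl2 (-0.25 and -0.19) were near equal. Of the nucleotide synthesis genes, 11 of 21 were higher in young and 10 of 20 in old IEL, among them the thymidylate synthase gene Tyms (3.13 and 3.03) and Rrm1 (2.33 and 2.33). Some of these genes stand in the S phase list too.

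Energy metabolism differed less. Of the glycolysis list 1 of 14 genes was higher in young (Tpi1) and 0 of 14 in old IEL, with medians of 0.43 and 0.54. Gapdh had log2 ratios of 0.92 and 0.78 and Pkm of 0.86 and 0.85. When marked cells alone were compared with the cells outside the rule, 5 of 14 glycolysis genes were higher in young (Tpi1, Pgk1, Pgam1, Gapdh and Pkm) and 4 of 14 in old IEL. Of 20 nuclear respiratory chain genes 0 were higher or lower at either age, with medians of 0.39 and 0.36.

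**Figure D3:**
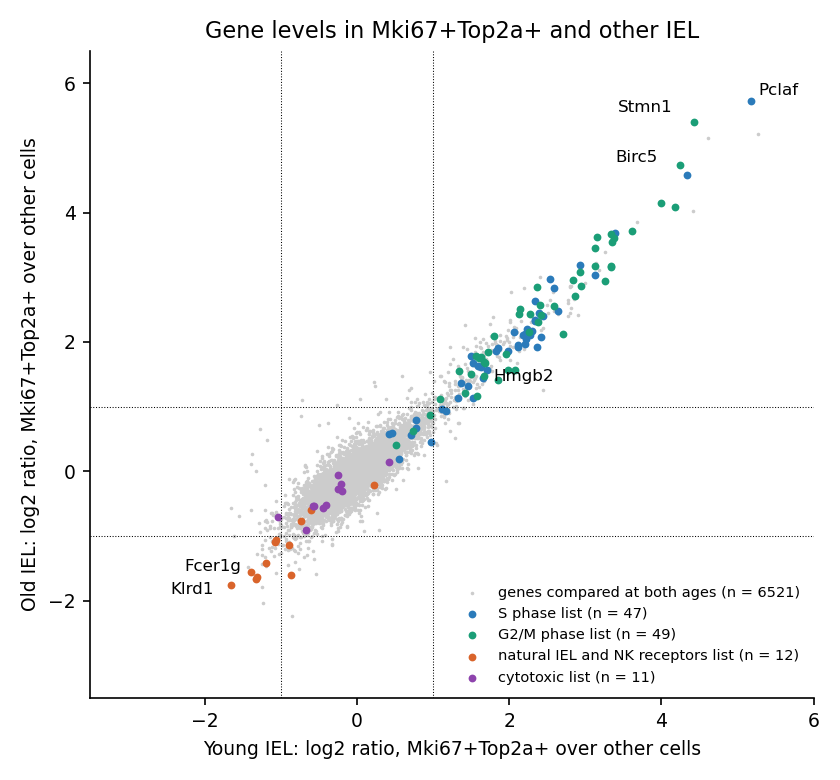
Each point is 1 of 6521 genes compared at both ages, with the log2 ratio of Mki67+Top2a+ over other cells in young IEL on the x axis and in old IEL on the y axis, and dotted lines at ratios of -1 and 1. The S phase (blue) and G2/M (green) genes lie mostly in the upper right, and Fcer1g and Klrd1 (-1.31 and -1.65 in young, -1.63 and -1.75 in old IEL) lie in the lower left with others of the natural IEL and NK receptor list (orange).

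Marked and unmarked cells gave very different numbers of genes. Marked cells against cells outside the rule gave 445 higher genes of 6787 (6.56%) and 197 lower (2.9%) in young IEL, and 540 of 7001 higher (7.71%) and 418 lower (5.97%) in old IEL. Unmarked cells gave 10 higher genes of 6479 (0.154%) and 33 lower (0.509%) in young IEL, and 18 of 6762 higher (0.266%) and 47 lower (0.695%) in old IEL. None of the S phase or G2/M genes was higher in unmarked cells at either age (0 and 0), and Pclaf had log2 ratios of -0.06 in young and -0.19 in old unmarked cells. The absence of Stmn1 and Birc5 from unmarked cells follows from how they were chosen.

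The lineage of the Mki67+Top2a+ cells was read after thinning to 2000 UMIs, so that Mki67+Top2a+ and other cells were of equal depth. Cd4, the co-receptor of helper T cells, was found in 18.1% of Mki67+Top2a+ (13.4 to 23.7) and 16.5% of other young IEL, and in 28.9% of Mki67+Top2a+ (20.8 to 38.2) and 26.1% of other old IEL. The intervals of Mki67+Top2a+ and all other cells overlapped at this depth. A subset of deeper other cells, 821 in young and 2295 in old IEL, had median depths of 10682 and 6980 UMIs before thinning. These medians were still below the 13733.5 and 8297 UMIs of the Mki67+Top2a+ cells. After thinning to 2000 UMIs the Cd4 share of this subset was 16.4% in young and 18.3% in old IEL (16.7 to 19.9). The old value lay below the interval of the old Mki67+Top2a+ cells. After thinning to 4000 UMIs the Cd4 share was 37.4% in Mki67+Top2a+ (31.1 to 44.0) and 26.2% in other young IEL (24.8 to 27.7). These intervals did not overlap. In old IEL it was 42.1% (32.6 to 52.0) and 35.8% (34.4 to 37.2), with overlapping intervals. Without thinning the shares were 55.2% and 34.0% in young and 64.9% and 43.5% in old IEL, with the Mki67+Top2a+ cells deeper. Among marked old cells the Cd4 share was 19.6% (9.36 to 33.9), below that of the unmarked old cells at 35.3% (24.1 to 47.8), with overlapping intervals. In naive-like CD8 cells of SP, selected by a TRB chain, Cd8b1, Ccr7 and Lef1, the Cd4 background was 6.5% in young and 1.68% in old cells, at median depths of 6537 and 8251 UMIs.

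Cd8a, which encodes the alpha chain that both CD8 dimers share, was found in 57.8% of Mki67+Top2a+ (51.1 to 64.2) and 66.5% of other young IEL, and in 74.6% of Mki67+Top2a+ (65.6 to 82.3) and 79.5% of other old IEL. In young IEL the share was 48.4% in marked and 78.1% in unmarked cells. The Cd8a level was 8.35 UMIs per 10000 in Mki67+Top2a+ and 13.2 in other young IEL and 10.9 and 17.2 in old IEL, a log2 ratio of -0.66 at either age. Cd8b1, the beta chain of conventional CD8 T cells, was found in 11.2% of Mki67+Top2a+ and 9.01% of other young IEL and in 7.02% and 6.02% in old IEL. The naive-like CD4 cells of SP, which should lack CD8, gave backgrounds of 2.13% and 4.29% for Cd8a and of 8.19% and 6.98% for Cd8b1 in young and old cells, at median depths of 5612 and 5383 UMIs, so the Cd8b1 shares were close to background.

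Fcer1g and Trdc were found less often in the Mki67+Top2a+ cells. Fcer1g, the signalling adaptor of NK and natural IEL receptors, was found in 31.0% of Mki67+Top2a+ (25.1 to 37.4) and 52.2% of other young IEL (50.7 to 53.8), and in 28.1% of Mki67+Top2a+ (20.1 to 37.3) and 54.0% of other old IEL (52.7 to 55.3). Marked young cells had Fcer1g in 24.5% (18.1 to 32.0) and marked old cells in 21.7% (10.9 to 36.4). In the subset of deeper other cells, 821 in young and 2295 in old IEL, the Fcer1g share was 59.0% and 70.0%. Trdc, the constant segment of the delta chain, was found in 9.48% of Mki67+Top2a+ (6.04 to 14) and 17.5% of other young IEL, and in 5.26% (1.96 to 11.1) and 10.5% in old IEL. Against the young cells of that subset, which had Trdc in 15.3% (12.9 to 18.0), the interval of the young Mki67+Top2a+ cells overlapped. The background in the naive-like CD4 cells of SP was 0.533% and 0.894% for Fcer1g and 0.20% and 0 of 559 cells (at most 0.658%) for Trdc.

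A productive TRB chain was listed for 75.4% of Mki67+Top2a+ (69.4 to 80.8) and 62.8% of other young IEL, and for 72.8% of Mki67+Top2a+ (63.7 to 80.7) and 62.5% of other old IEL. The TCR library is separate from the gene counts and was not thinned. Among IEL with 3 or more Trdc UMIs, which should lack a TRB chain, 16.5% of 673 young and 13.6% of 368 old cells had one. The shares of cells with Fcer1g and Trdc were thus lower and those with a TRB chain higher in Mki67+Top2a+ cells at both ages, with intervals that overlapped for both Trdc and the TRB chain (63.7 to 80.7 against 61.2 to 63.8) in old IEL.

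**Figure D4:**
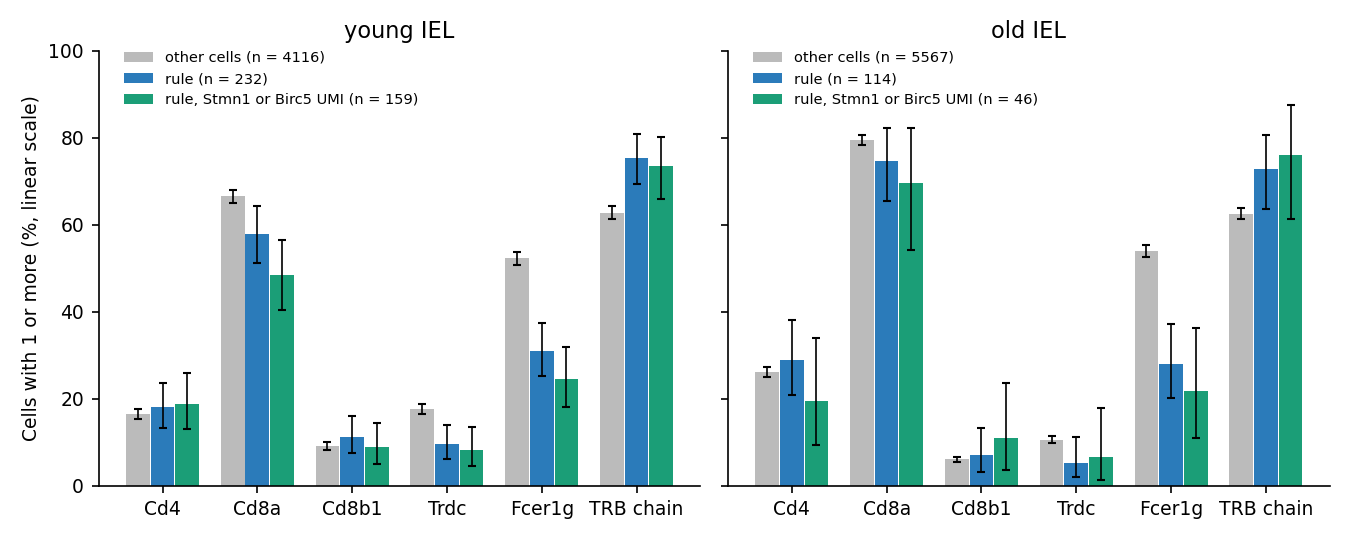
Bars give the percent of cells with a UMI of Cd4, Cd8a, Cd8b1, Trdc or Fcer1g after thinning to 2000 UMIs, or with a listed TRB chain, in other cells (grey), cells that met the rule (blue) and marked cells (green), with exact binomial 95% intervals. The Fcer1g bars stand at 52.2%, 31.0% and 24.5% in young and at 54.0%, 28.1% and 21.7% in old IEL.

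Read the other way, Mki67+Top2a+ cells were found in every lineage gate, but many fell outside the gates. Of 232 young and 114 old such cells, 96 and 42 fitted no gate. A further 5 and 2 had mixed markers (a TRB chain with Trdc, or Cd4 with Cd8b1). Here the gates were set after thinning to 2000 UMIs but the rule was read on all UMIs of a cell, so these shares depend on depth. Of cells with a TRB chain and Cd4 but no Cd8b1 or Trdc (the CD4 gate), 6.48% in young (4.63 to 8.79) and 2.50% in old IEL (1.65 to 3.61) met the rule. For cells with a TRB chain and Cd8b1 but no Cd4 or Trdc (CD8 alpha-beta gate) the shares were 7.51% and 3.32%. Cd8b1 was close to background, so this gate may hold other cells. For cells with a TRB chain and Cd8a but no Cd4, Cd8b1 or Trdc (CD8 alpha-alpha gate) they were 5.30% and 1.80%. Thinning loses Cd4 UMIs, so this gate can include CD4 cells. With gates set on all UMIs, which depend on depth as well, the CD4 gate had 8.79% (7.21 to 10.6) and 2.93% (2.19 to 3.82). The CD8 alpha-alpha gate then had 3.50% (2.28 to 5.13) and 1.22% (0.669 to 2.04). The intervals of these gates did not overlap at either age. Of the gates set after thinning, gamma-delta had the lowest shares, 2.56% in young (1.44 to 4.18) and 0.792% in old IEL (0.216 to 2.02). The intervals of the CD4 and gamma-delta gates did not overlap in young IEL and overlapped in old IEL. For marked cells the shares were 4.44% (2.92 to 6.43) and 1.70% (0.820 to 3.11) in young and 0.647% and 0.396% in old IEL, and with the gates set after thinning to 1000 UMIs, 4.62% (2.67 to 7.40) and 1.57% (0.577 to 3.38) of young IEL in them met the rule on all UMIs, with overlapping intervals in each case. Within the CD4 gate, Cd8a was found in 14 of 38 Mki67+Top2a+ cells (36.8%) and in 31.2% of the others in young IEL, and in 20 of 27 Mki67+Top2a+ cells (74.1%) and in 67.6% of the others in old IEL. Fcer1g was found in 3 of 38 against 13.1% in young IEL and in 1 of 27 (3.70%) against 29.1% in old IEL.

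Genes lower in the Mki67+Top2a+ cells at both ages included receptors of natural IEL and NK cells. Klrd1, which encodes the NK receptor subunit CD94 (chromosome 6, 129591782 to 129598775), was at 1.83 UMIs per 10000 in Mki67+Top2a+ and 5.96 in other young IEL and at 1.89 and 6.59 in old IEL. Its log2 ratios were -1.65 and -1.75. Fcer1g (chromosome 1, 171229572 to 171234365) was at 5.84 and 14.7 in young and at 5.74 and 17.9 in old IEL, with log2 ratios of -1.31 and -1.63. The adaptor Tyrobp had log2 ratios of -1.39 and -1.55, and the inhibitory receptor family member Cd200r2 of -1.33 and -1.67. At both ages the Mki67+Top2a+ cells of each pool were thus below the other cells, with Poisson intervals far apart. Within some lineage gates these genes fell short of 2-fold. In young IEL the log2 ratio of Cd200r2 was -0.61 in the CD4 gate and -0.23 in the gamma-delta gate. In the young CD8 alpha-beta gate Klrd1 was at -0.59 and Tyrobp at 0.13. Tyrobp was at -0.44 in the old gamma-delta gate. In the other gates Klrd1, Tyrobp and Cd200r2 were lower.

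Of the natural IEL and NK receptor list, 7 of 12 genes compared were lower in young IEL and 9 of 12 in old IEL, with medians of -1.07 and -1.28 beside -0.03 and -0.04 over all genes. The genes lower at both ages were Klrd1, Tyrobp, Fcer1g, Lyn, Clnk, Cd200r1 and Cd200r2, and Klre1 (-1.61) and Klra5 (-1.14) were lower in old IEL alone by this rule. Fcer1g was also lower in Mki67+Top2a+ cells within the CD8 alpha-alpha gate of old IEL, at 6.46 against 24.7 UMIs per 10000 (log2 ratio -1.92). In the same gate of young IEL it was at 12.1 against 22.9 (-0.91), short of 2-fold. This gate can include CD4 cells that had no Cd4 UMI after thinning. Within the CD4 gate, 390 of 6656 genes were higher (5.86%) and 168 lower (2.52%) in young Mki67+Top2a+ cells, and 256 of 7026 higher (3.64%) and 131 lower (1.86%) in old ones. Fcer1g levels in that gate of old IEL were 0.954 and 10.6 in 27 and 1055 cells, a log2 ratio of -3.34, and in young IEL 1.5 and 4.34 (-1.48). The gates differed, since Fcer1g was at 4.03 against 3.12 in 22 Mki67+Top2a+ cells of the CD8 alpha-beta gate of young IEL, had 0 UMIs in 8 Mki67+Top2a+ cells of that gate of old IEL (0 to 0.369) against 2.59 in 233 other cells, and was at 27.6 against 28.9 in 4 Mki67+Top2a+ cells of the gamma-delta gate of old IEL. In the gamma-delta gate of young IEL it was at 10.6 in 15 Mki67+Top2a+ cells against 22.1 (-1.05). Unmarked cells had log2 ratios for Fcer1g of -0.27 in young and -1.03 in old IEL, and marked cells of -1.78 and -2.18.

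Other lower genes included Bcl2, the survival factor, at 1.13 against 3.04 UMIs per 10000 in young and 1.27 against 4.24 in old IEL (log2 ratios -1.35 and -1.66). Bcl2 fell short of 2-fold within clonotype1, the largest clonotype of old IEL (0.861 against 1.02, -0.22), and in the gamma-delta gates (-0.59 in young and -0.71 in old IEL). Il7r, the receptor of interleukin 7, and Pim2 joined Bcl2 among the 3 lower genes of 15 in the interleukin 2 and 15 list in young IEL, and Bcl2 was the 1 lower gene of 15 in old IEL. The receptor subunit Il2rb had log2 ratios of -0.61 and -0.72. Among inhibitory receptors, Cd200r1 and Lag3 were the 2 of 8 lower genes in young IEL, and Lag3 (-1.57), Entpd1, Tigit (-1.20) and Cd200r1 the 4 of 8 in old IEL, while Ctla4 had log2 ratios of 0.32 and 0.29. Vps37b (-1.27 and -0.94), Neurl3 (-1.25 and -1.20), Prag1 (-1.21 and -0.87) and Myo1e (-1.20 and -0.77) were among the 10 genes with the smallest ratios in young IEL.

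Few effector genes were counted as lower in the Mki67+Top2a+ cells, beside 1.25% and 1.53% of all genes compared in young and old IEL. Gzma was at 218 UMIs per 10000 in Mki67+Top2a+ and 290 in other young IEL and at 215 and 307 in old IEL, log2 ratios of -0.41 and -0.52. Gzmb had log2 ratios of -0.57 and -0.53. Of 11 cytotoxic genes compared, 1 was lower in young (Prf1, perforin, -1.03) and 0 in old IEL, with medians of -0.41 and -0.52. The chemokine Ccl5 was at 180 against 386 in young (-1.10) and 194 against 309 in old IEL (-0.67), and 2 of 9 (Ccl5 and Ccr7) and 0 of 8 genes of the chemokine list were lower. The young Ccl5 value fell short of 2-fold against the subset of deeper other cells (-0.98). It also did so in the CD8 alpha-alpha (-0.78), CD8 alpha-beta (-0.65) and gamma-delta (-0.70) gates. The early response list, whose genes are also induced by tissue digestion, had 0 of 17 higher or lower genes at either age, with medians of -0.52 and -0.48. Junb had log2 ratios of -0.60 and -0.58.

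Genes of naive T cells were lower in young Mki67+Top2a+ IEL in 7 of 8 genes compared, with a median of -1.30, and in 0 of 4 in old IEL, with a median of -0.11. Tcf7, a transcription factor of naive and memory T cells, was at 0.445 against 1.27 UMIs per 10000 in young IEL (-1.33) and at 0.538 and 0.538 in old IEL, where the log2 ratio was 0.00. Klf2, which holds T cells in quiescence and recirculation, was at 0.571 against 1.51 in young (-1.27) and at 0.733 against 0.428 in old IEL (0.66), where 1 cell held 32.2% of the Klf2 UMIs of the Mki67+Top2a+ cells. The other cells had higher levels of both genes in young than in old IEL. The difference between the ages was not tested.

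The lists for intestinal residence (1 of 15 lower at each age, Cd101 in young and Itga1 in old IEL), costimulatory receptors (0 of 11 in young, 1 of 11 higher in old IEL, Tnfrsf4), regulatory T cells (0 of 4 and 0 of 3) and Th17 cells (1 of 5 lower, Il22, and 0 of 5) differed little by this rule. Itgae, the integrin that binds E-cadherin, had log2 ratios of -0.34 and -0.27, and Itgb7 of 0.29 and 0.33. Among gamma-delta TCR segments 1 of 6 genes was lower in young (Trdc, -1.03) and 1 of 6 in old IEL (Trdv1), and Trdc in old IEL had a log2 ratio of -0.97.

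Markers of other cell types were low, and their summed levels were higher or lower in the Mki67+Top2a+ cells depending on the list and the age. The summed level of 9 B cell genes was 0.789 UMIs per 10000 in Mki67+Top2a+ and 1.32 in other young IEL, and 2.70 and 1.66 in old IEL, with 5 of the 9 genes at 0 in the Mki67+Top2a+ cells of each age. In old Mki67+Top2a+ cells Cd74, the top gene of that list, was at 1.76, and 79.2% of its UMIs and 92.3% of those of H2-Aa came from 1 cell. The plasma cell list of 8 genes was at 1.29 and 2.28 in young and 0.945 and 3.15 in old IEL, led by Xbp1, with 4 genes at 0. Its lower genes in old IEL (Jchain, Igha and Igkc) and the immunoglobulin segments Ighv9-3 and Igkv4-59, which were at 0 in the Mki67+Top2a+ cells, rested on few of the other cells, and 1 of the other cells held 99.9% of the Ighv9-3 UMIs. The epithelial list of 15 genes was at 0.405 and 1.09 in young and 0.309 and 0.881 in old IEL, led by Epcam, which was lower at both ages (-1.25 and -1.29), with 9 and 11 genes at 0. The myeloid list of 11 genes was at 0.183 and 0.119 in young and 0.122 and 0.114 in old IEL, led by Cd68, with 5 and 7 genes at 0, and the erythroid list of 6 genes at 0.0116 and 0.00625 and at 0 and 0.00467. The immature thymocyte list held 5 of 11 genes at 0 in the Mki67+Top2a+ cells of each age. The part of these markers in the other results was not tested.

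In the TCR data, the Mki67+Top2a+ cells of young IEL were spread over many clonotypes and those of old IEL were concentrated. A clonotype is a set of cells with the same paired or single TCR chain sequences, numbered here as in the deposited TCR tables, which number each group separately. In young IEL 179 Mki67+Top2a+ cells fell into 158 clonotypes, of which 144 held 1 Mki67+Top2a+ cell, and a pair of cells shared a clonotype in 0.195% of cases, against 0.113% among the other cells. In old IEL 89 Mki67+Top2a+ cells fell into 40 clonotypes, and a pair shared a clonotype in 21.3%, against 10.4% among the other cells. The 52 unmarked cells, which lacked the cell cycle programme, had a pair share of 26.6%, and the 37 marked cells of 14.4%. For the 21 cells that met the rule after thinning it was 11.0%, against 10.5% for the other cells. These 21 cells, with 7 in the largest clonotype, are too few to tell whether the pair share stayed higher.

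CDR3 sequences of 3 young and 2 old clonotypes with 3 or more Mki67+Top2a+ cells are printed as examples of the receptors such cells carried, with nucleotides in 5′ to 3′ order and capitals for the first and last codon of each deposited CDR3.
Young clonotype10 TRA (TRAV6-4, TRAJ4): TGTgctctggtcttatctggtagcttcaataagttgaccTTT
Young clonotype10 TRB (TRBV10, TRBJ2-1): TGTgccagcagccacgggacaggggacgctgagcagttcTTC
Young clonotype4 TRA (TRAV12D-3, TRAJ7): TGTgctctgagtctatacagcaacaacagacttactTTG
Young clonotype4 TRB (TRBV20, TRBJ2-7): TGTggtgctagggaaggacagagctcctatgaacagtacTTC
Young clonotype18 TRA (TRAV9D-3, TRAJ22): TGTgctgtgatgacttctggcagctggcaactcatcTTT
Young clonotype18 TRB (TRBV10, TRBJ1-1): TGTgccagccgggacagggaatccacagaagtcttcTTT
Old clonotype3 TRA (TRAV7D-2, TRAJ50): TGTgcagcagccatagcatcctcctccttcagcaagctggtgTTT
Old clonotype3 TRB (TRBV19, TRBJ2-5): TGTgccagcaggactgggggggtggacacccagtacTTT
Old clonotype8 TRA (TRAV12D-3, TRAJ13): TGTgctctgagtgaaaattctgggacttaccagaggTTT
Old clonotype8 TRB (TRBV13-1, TRBJ1-6): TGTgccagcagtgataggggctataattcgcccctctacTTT
None of the TRB sequences printed was found in the IEL of the other age (0 cells each).

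In young IEL clonotype10 had 5 Mki67+Top2a+ cells of 16 (31.2%, 11.0 to 58.7), 4 of them marked, and its cells mostly had Cd8a (87.5%) with Cd8b1 in 50% and Fcer1g in 0%. Clonotype18, with 3 Mki67+Top2a+ cells of 10, uses TRBV10 as well and had Cd8a in 100% and Cd8b1 in 40.0% of its cells. Clonotype4 had 3 Mki67+Top2a+ cells of 24, all marked, with Cd4 in 50% and Cd8a in 75% of its cells. Clonotypes 23 and 71 also had 3 Mki67+Top2a+ cells each, of 9 and 5 cells. Fcer1g was thus at 0 or at 1 cell in 9 (11.1%) in these 5 clonotypes. Of the 10 largest young clonotypes, the 4 with Fcer1g in 94.4% to 100% of cells had 0 to 2 Mki67+Top2a+ cells, and the 6 others had 1 to 5, too few to compare. By clonotype size, 4.56% of young IEL whose clonotype held 1 cell met the rule, 9.17% (7.46 to 11.1) of those in clonotypes of 2 to 9 cells and 5.90% of those in clonotypes of 10 or more.

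In old IEL the 2 dominant clonotypes differed in their Mki67+Top2a+ share on raw counts. Clonotype1 had 41 Mki67+Top2a+ cells of 1047, or 3.92% (2.82 to 5.28), of which 14 were marked (1.34%, 0.733 to 2.23). Clonotype2 had 2 of 673, or 0.297% (0.0360 to 1.07), of which 0 were marked, which allows a share of up to 0.547%. The intervals did not overlap in either count, at median depths of 4675 and 5686 UMIs. After thinning to 2000 UMIs the rule was met by 7 cells of clonotype1 (0.673%, 0.271 to 1.38) and 1 cell of clonotype2 (0.150%, 0.00380 to 0.832), and the intervals overlapped. Clonotype1 had Fcer1g in 3.46%, Cd4 in 49.9% and Cd8a in 57.2% of its cells after thinning, and clonotype2 had Fcer1g in 99.9%, Cd4 in 33.4% and Cd8a in 98.5%. Clonotype3, with Fcer1g in 96.7% and Cd4 in 0.662% of its cells, had 4 Mki67+Top2a+ cells of 151 (2.65%, 0.726 to 6.64). Of these 4 cells, 3 were marked. The interval of clonotype3 overlapped those of both clonotype1 and clonotype2. Clonotypes 4 and 6, with Fcer1g in 94.8% and 98.6% of their cells, had 1 Mki67+Top2a+ cell each, of 77 and 72 cells. Clonotypes 8 and 10 had 3 Mki67+Top2a+ cells each of 60 and 39.

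**Figure D5:**
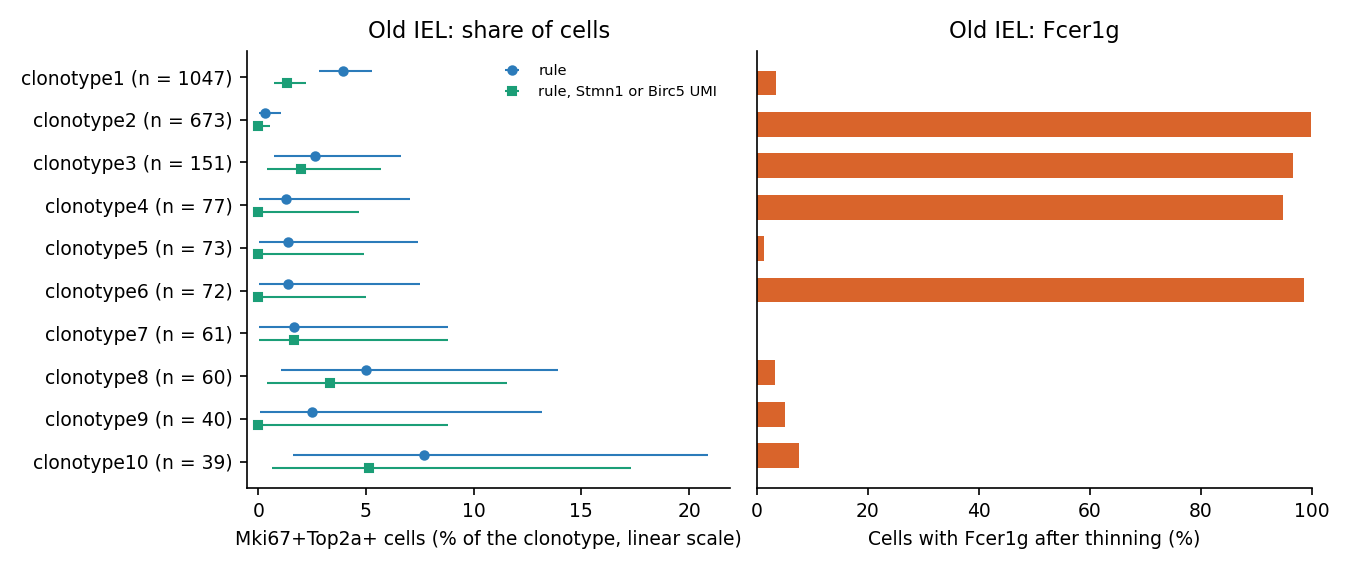
For the 10 largest clonotypes of old IEL the left panel gives the percent of cells that met the rule (blue circles) or met it and were marked (green squares), with exact binomial 95% intervals, and the right panel the percent of cells with Fcer1g after thinning. Clonotype1 (3.92%) and clonotype2 (0.297%) do not overlap, and the smaller clonotypes have wide intervals.

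Of the Mki67+Top2a+ cells with a TRB chain, 64.0% in young and 86.7% in old IEL had a clonotype that was also held by a cell outside the rule. Among all young IEL with a clonotype, 1468 were alone in theirs, 1003 were in clonotypes of 2 to 9 cells and 339 in larger ones. In old IEL these numbers were 664, 515 and 2727, so most old IEL with a clonotype shared it with another cell.

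Within clonotype1 the cell cycle genes were higher in the Mki67+Top2a+ cells as well. Comparing its 41 Mki67+Top2a+ with its 1006 other cells, 304 of 6774 genes were higher (4.49%) and 68 lower (1%). Pclaf was at 5.06 against 0.0337 UMIs per 10000 and Stmn1 at 6.18 against 0.0833. Of the S phase list 39 of 46 genes and of the G2/M list 36 of 44 genes were higher, with medians of 1.70 and 2.17. Fcer1g was at 1.11 (0.810 to 1.5) against 0.834 (0.757 to 0.918), a log2 ratio of 0.38, and Klrd1 at 0.329 against 0.339 (-0.03). In the natural IEL and NK receptor list 0 of 9 genes were lower and 2 higher (Clnk and Kit), and the summed level was 6.13 against 4.49. In the 5697 old IEL outside the rule, which include these 1006 cells, the levels of Fcer1g and Klrd1 were 17.9 and 6.59. Genes of the B cell list were higher in the 41 cells, Cd74 at 4.46 against 0.591 and H2-Aa at 1.82 against 0.111, with 171 of 176 Cd74 UMIs and all 72 H2-Aa UMIs in 1 cell, and their part in the other values was not tested.

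Old and young Mki67+Top2a+ cells were compared by their summed UMIs, in which deeper cells weigh more. Of 6639 genes compared, 45 were higher in old (0.678%) and 18 in young Mki67+Top2a+ IEL (0.271%), and among the other cells 43 of 6552 were higher in old (0.656%) and 32 in young IEL (0.488%). Of the S phase list 0 of 47 and of the G2/M list 0 of 53 genes differed between the ages in Mki67+Top2a+ cells, with medians of -0.21 and -0.07 beside 0.02 over all genes. Per cell, the S phase list had a median of 61.9 UMIs per 10000 in young and 17.9 in old Mki67+Top2a+ cells, and the G2/M list of 59.1 and 23.1, with 159 of 232 young and 46 of 114 old cells marked. Jun, an immediate early transcription factor, was at 2.35 UMIs per 10000 in young and 6.04 in old Mki67+Top2a+ cells (log2 ratio 1.33) and at 3.96 and 8.48 in the other cells (1.08). Btg2, an antiproliferative early response gene, had log2 ratios of old over young of 1.09 in Mki67+Top2a+ and 0.62 in other cells, and the glucocorticoid receptor gene Nr3c1 of 1.02 and 0.72. Plac8 was lower in old cells, at 1.26 and 0.432 in Mki67+Top2a+ (-1.35) and 1.68 and 0.437 in other cells (-1.73), with 49.1% of the Plac8 UMIs of the old Mki67+Top2a+ cells in 1 cell. Anxa2, annexin A2, had log2 ratios of -1.22 and -0.74. For each of these genes Mki67+Top2a+ and other cells differed between the ages in the same direction, and 0 genes were counted in opposite directions.

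Within the CD4 gate the ages differed more, with 27 old and 38 young Mki67+Top2a+ cells. Here 147 of 6975 genes were higher (2.11%) and 125 lower (1.79%) in the old cells. Of the G2/M list 17 of 52 genes were lower in old cells, among them Birc5, Ube2c and Cenpf, with a median of -1.01, and of the S phase list 6 of 47 were lower, with a median of -0.67. In this gate 26 of 38 young cells were marked, but 7 of 27 old ones. When marked cells of all lineages were compared, 0 of 54 G2/M and 0 of 48 S phase genes differed, with medians of 0.18 and 0.10, and 35 of 6478 genes were higher (0.54%) and 26 lower (0.401%) in old cells. Unmarked cells gave 92 of 6702 higher (1.37%) and 62 lower (0.925%).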

How the data were processed

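Single-cell 5′ gene expression and TCR libraries of 4 pools of T cells were read as deposited. The values are raw UMI counts per gene and cell, which the authors made with Cell Ranger 7.0.1 on mm10 per the labels and the methods, without normalization, for 32285 genes. The TCR tables list filtered contigs with a deposited clonotype. The labels and the methods give 3 mice per age, and another text of the study gives a larger number of young mice, so this number is uncertain. The 3 samples with no group in the labels were not analysed here.

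The members and all gene lists were chosen with earlier results of these data known. Cells were thinned without replacement to 2000 UMIs for shares, or 1000 and 4000 UMIs as alternatives, and shallower cells were left out. Levels are summed UMIs per 10000 with 0.1 added before log2, for genes with at least 0.2 UMIs per 10000 in either set of cells. Mki67 and Top2a were left out of the genes compared. The genes named are the 4 cycling and 5 lineage genes, the 10 largest and 10 smallest ratios at each age among genes at 1 UMI per 10000 or more that were higher or lower at that age with the same sign at the other age, up to 8 each way between the ages, and up to 5 genes of each list by summed UMIs in the Mki67+Top2a+ cells. Genes outside this rule that are named from a list's count were chosen after their values were seen. Doublets were kept in the main values. Scrublet (through scanpy 1.11.5) called 0 of 4348 young and 4 of 5811 old IEL, too few for it to have worked, so cells with 2 or more productive TRB chains (9 of 175 young and 4 of 83 old Mki67+Top2a+ cells with a chain) were left out as an alternative. The gene steps were tested on simulated summed UMIs without variation between cells. Genes with many of their UMIs in 1 cell were therefore not covered by that test. Gene positions are from GENCODE M21 on GRCm38, and promoters from RefSeq on GRCm38.p6. Python 3.11.15, numpy 2.4.6 and scipy 1.17.1 were used. The chain sequences of 1 clonotype are not reported here.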

Additional observations from a re-analysis of the deposited data

Results flagged for a closer look

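Outside the rule, 56 young IEL (1.36%) and 11 old IEL (0.193%) had UMIs of both Stmn1 and Birc5 without having both Mki67 and Top2a. Their G2/M list had a median of 57.5 UMIs per 10000 in young and 26.1 in old IEL, against 18.8 and 19.6 over all cells outside the rule. Their S phase list had medians of 12.9 and 19.9, against 13.0 and 13.5 over all cells outside the rule. In SP, 26 young and 24 old cells met the same rule, of which 20 and 17 had a UMI of Stmn1 or Birc5, at median depths of 14133 and 12601.5 UMIs.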

How the results depend on the processing

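Of 795 alternative values, 548 stayed within the spread or 1.5 times of the reported value, 233 moved further, among them 70 of 181 shares and counts, and 14 turned the direction of a gene that had been counted as higher or lower. The splits by Stmn1 and Birc5, thinning to 4000 UMIs, the mixed-marker filter, the other gates and the comparison within clonotype1 were added after seeing the data. The Mki67+Top2a+ share in young and old IEL was 1.56% and 0.458% after thinning to 2000 UMIs, 0.736% and 0.241% at 1000, 2.94% and 1.32% at 4000, 2.83% and 0.723% with 2 or more UMIs of each gene, 29.0% and 15.7% with either gene, and 3.66% and 0.792% for marked cells. Young IEL stayed above old IEL in each. Without the 2 largest clonotypes the shares were 5.35% and 1.74%, and without doublets 5.36% and 1.91%. The Cd4 share of Mki67+Top2a+ cells in young and old IEL was 55.2% and 64.9% on raw counts. It was 8.19% and 15.8% at 1000 UMIs and 37.4% and 42.1% at 4000, so it depends on depth. In old IEL at 2000 UMIs it was 16.7% with 2 or more UMIs of each gene and 19.6% for marked cells. Here the cells taken differ, not the depth. The Fcer1g share in young IEL was 19.5% with 2 or more UMIs of each gene and 24.5% for marked cells. The pair share of old clonotypes was 11.0% after thinning.

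The number of genes higher in young Mki67+Top2a+ cells was 67 with 1 added in place of 0.1, 131 with at least 1 UMI per 10000, 498 with 2 or more UMIs of each gene and 10 for unmarked cells. The number lower in young IEL was 5, 33, 273 and 33 in these settings. It was 50 as a mean over cells, 41 against the deeper other cells, 168 in the CD4 gate and 197 for marked cells. In old IEL the number higher was 52, 108, 559 and 18 in these settings and 540 for marked cells. The number lower was 9, 34, 422 and 47, with 51 as a mean over cells, 418 for marked cells and 68 within clonotype1. Between old and young Mki67+Top2a+ cells, 3 genes were higher and 1 lower with 1 added, 147 and 125 in the CD4 gate, and 92 and 62 for unmarked cells. Of the S phase list 14 genes in young and 10 in old IEL were higher with 1 added, 24 and 20 with the stricter filter and 0 and 0 for unmarked cells. Of the G2/M list these numbers were 21 and 17, 24 and 21, and 0 and 0. Of the natural IEL and NK receptor list 3 and 4 genes were lower with 1 added, 1 and 2 for unmarked cells, and 0 within clonotype1 in old IEL.

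Of 548 values of named genes 32 had the other sign, 14 of them of genes counted as higher or lower. These were, in young unmarked cells, Pclaf (-0.062), Hist1h1b (-0.37), Hist1h2ab (-0.032), Ccna2 (-0.18), Spc24 (-0.45), Tyrobp (0.0082) and Bcl2 (0.020), in old unmarked cells Pclaf (-0.19), Hist1h2ae (-0.23), Hist1h1b (-0.028) and Hist1h2ab (-0.15), and within clonotype1 of old IEL Fcer1g (0.38), Cd200r2 (0.10) and Tyrobp (0.83). In the CD8 alpha-beta gate of young IEL, outside these 548 values, Fcer1g (0.36) and Tyrobp (0.13) had the other sign too. The causes of these changes were not tested. No paired analysis was possible because each group is 1 pool. Depth limits the rule itself, since a shallow Mki67+Top2a+ cell can miss a UMI of either gene.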

Other observations

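Most cytokine genes were found in few of the Mki67+Top2a+ cells. Of 6 cytokine genes compared, 1 was lower in young (Il22) and 1 higher in old IEL (Areg), with medians of 0.11 and 0.47. Il17a was at 1.64 UMIs per 10000 in Mki67+Top2a+ and 2.18 in other young IEL, in 16 and 108 cells, and 43.0% of the UMIs of the Mki67+Top2a+ cells came from 1 cell. Areg, which encodes the tissue repair factor amphiregulin, was at 1.02 against 0.414 in old IEL, with 56.0% of its UMIs in 1 of 16 cells. Xcl1, a chemokine of natural IEL, had log2 ratios of 0.23 in young and -0.22 in old IEL, with 47.0% and 49.0% of its UMIs in 1 cell. Ifng was found in 99 young and 66 old Mki67+Top2a+ cells, with log2 ratios of 0.58 and 0.12. Cd5, which dampens TCR signals, had log2 ratios of 0.63 and 0.75, and Cd6, a receptor of the same family, of 0.49 and 0.50, both short of 2-fold.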
